A study of Mus musculus with 41 samples.

Results

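Tumours taken 2 days after doxycycline was withdrawn were compared with tumours still on the drug, in a mouse melanoma whose growth is driven by a doxycycline-inducible BRAF transgene, the iBIP strain. The comparison holds 9 of the 41 tumours of the study: the 5 tumours labelled as 2 days off the drug, called day 2 tumours here, and the 4 labelled as 0 days off it, called day 0 tumours. All 9 carry the label iBIP and were macrodissected frozen tumours from which skin had been trimmed, so inducible BRAF and the further alleles of the strain are common to both groups. The labels give neither the alleles and the promoter behind the transgene nor the age or sex of the mice. They do not say that the tumours came from separate mice either. The p-values therefore measure only the spread between samples, estimated within the groups of all 41 tumours. The 7 tumours of day 1 and the 6 of day 3 were used as neighbouring times. RNA was hybridised to Affymetrix Mouse Genome arrays, in which a probe set of short oligonucleotides reports a transcript as a brightness. Values are log2 intensities, and a difference of 1 on that scale is a doubling. The median over the probe sets of an array lay at 6.14 and the 95th percentile at 10.26. A replicate number only names a tumour.

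BRAF is a kinase at the head of the MAPK cascade: it activates MEK, which activates ERK, and ERK enters the nucleus and induces transcription factors, cell cycle genes and its own inhibitors. Among those inhibitors are the dual-specificity phosphatases (Dusp), which remove the activating phosphates of MAP kinases, and the Sprouty (Spry) and Spred proteins, which act upstream at RAS and RAF. In melanoma the transcripts of these inhibitors are widely read as a measure of ERK activity. Bulk tumour RNA also carries the transcripts of macrophages, lymphocytes, mast cells, fibroblasts and skin, and in such RNA fewer cells of a type and less RNA per cell cannot be told apart.

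Braf measured 8.51, 8.64, 8.68, 8.79 and 8.86 in the day 2 tumours, against 8.56, 8.41, 8.46 and 8.37 in the day 0 tumours. The groups overlapped and the gene was not called, with a log2 difference of 0.25 ± 0.11 (SE, adjusted p = 0.145). Of 9 tested Braf probe sets 5 were higher at day 2, and 4 of those 5 were called in a fit of every probe set. Which sequence the transgene carries is not given in the sources used here, so these probe sets are no check of the labels. Of the 8 markers used to check that the tissue held melanoma cells, the factors Mitf, Sox10 and Pax3 were above the array median in every tumour of both groups. The mean over the 7 tested markers ran from 6.61 to 7.20 at day 2 and from 6.97 to 7.46 at day 0, and the pigment genes Tyrp1, Dct, Pmel and Mlana were the low ones. Tyr, the enzyme that starts melanin synthesis, did not pass the filter on low values.

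Several array measures moved with the groups. All 5 day 2 arrays belonged to 1 set by their hybridisation spike-in level and all 4 day 0 arrays to another. The spike-in bioD measured 11.80 ± 0.04 on the day 2 arrays and 12.53 ± 0.25 on the day 0 arrays (SD, n = 5 and 4). The 3′ minus 5′ difference of the Gapdh probe sets, a sign of RNA integrity, was -0.03 ± 0.07 at day 2 and 0.45 ± 0.12 at day 0, and an 18S ribosomal RNA probe set measured 6.58 ± 0.65 at day 2 and 8.91 ± 0.84 at day 0. Between the 2 groups, spike-in set and time off the drug cannot be told apart. A fit with the set as a block gets its estimate through 1 day 1 array and 2 arrays of later tumours. These fall outside the set of the other arrays of their group. Tumours of days 63 to 163 were pooled as 1 late group. Its 2 linking arrays were of days 136 and 163 and its other arrays of days 63 to 121. Within that group set and time cannot be told apart, so the block estimate may carry a difference in time. Adjusted p-values from that fit are given below as "with the set as a block".

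Of 14319 genes tested, 2161 were called at a limma adjusted p under 0.05 (15.1%), 965 of them higher at day 2 (6.74%) and 1196 lower (8.35%). All 5 day 2 values lay above all 4 day 0 values for 895 genes (6.25%) and below them for 1452 (10.1%). The median log2 difference over all genes tested was -0.02. The count moved with single tumours: 1178 genes were called without day 0 replicate 4 and 1358 without day 2 replicate 5. In every fit that left out 1 tumour, 857 of the 2161 genes were called (39.7%). A limma fit of the 2 groups alone called 1569 genes. Of 1152 called genes with several tested probe sets, 929 (80.6%) had all of them in the same direction. With the set as a block 79 genes were called (0.552%). With the Gapdh difference as a covariate 2560 were called, and the part of the 18S signal in the results was not tested. Of the 2161 genes, 1825 (84.5%) had the same sign with the set as a block. The lists of pathway and cell type genes described below are counted against these shares. Some called genes are in more than 1 list and are counted in each, among them Epha2, Hbegf, Ccnd1, Cdkn1a, C1qb and Ccl5. The lists are thus not separate observations.

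**Figure D1:**
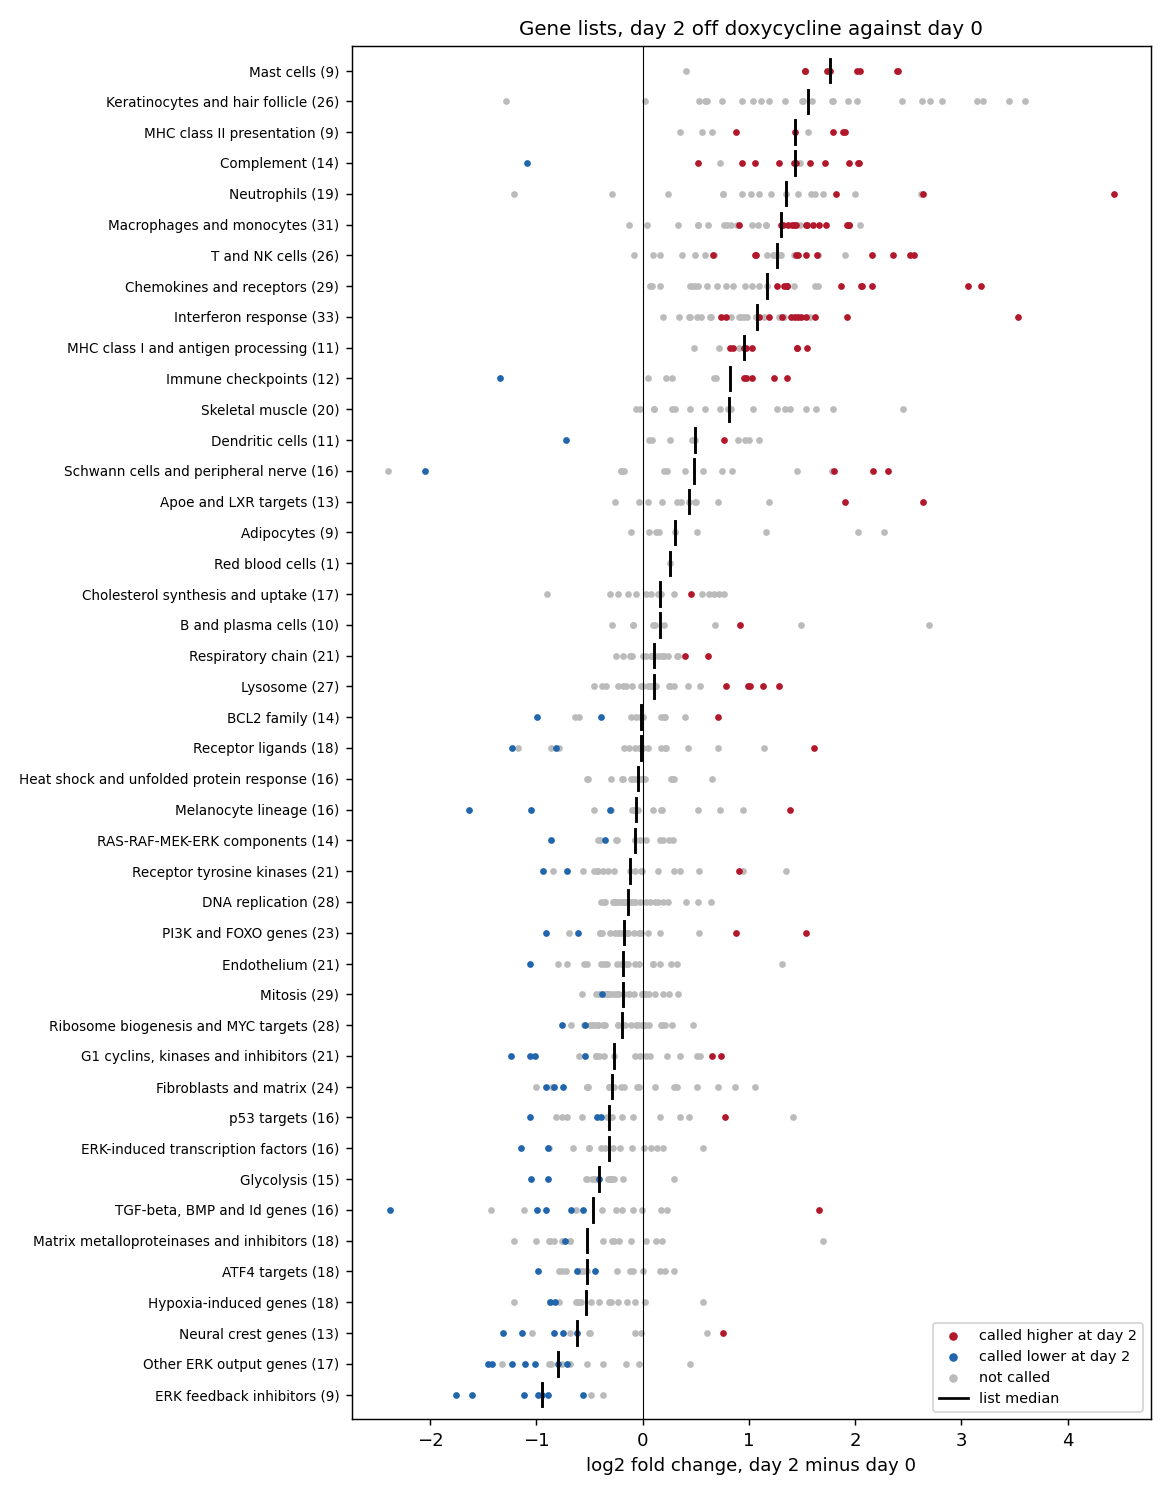
Log2 fold change, day 2 minus day 0, of the tested members of each gene list, with the number tested in brackets. Points are genes, red where called higher, blue where called lower and grey otherwise, and black bars are list medians. Mast cell, macrophage and complement genes lie mostly to the right of 0, and all 9 ERK feedback inhibitors lie to its left.

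ERK feedback inhibitors were lower at day 2. Of the 9 tested, 7 fell and 0 rose, against 8.35% of all genes lower. Their median log2 difference was -0.95, and all 9 differences were negative. Spred3, a membrane-bound brake on RAS to RAF signalling, measured 6.35, 6.48, 7.11, 6.09 and 6.12 at day 2, against 8.51, 7.45, 7.59 and 8.61 at day 0. Every day 2 tumour was below every day 0 tumour, with replicate 3 the highest of day 2. The fall came to -1.61 ± 0.21 on the log2 scale (SE, adjusted p = 5.58e-05), or 3.05-fold. Spry2, which binds upstream adaptors of RAS, measured 7.96, 8.16, 8.39, 8.40 and 8.15 at day 2, against 9.51, 8.99, 9.04 and 9.24 at day 0. The 5 day 2 values were close together and below the whole day 0 range, a difference of -0.99 ± 0.20 (adjusted p = 0.00142). Spred2 stood at 8.03, 8.33, 8.35, 8.15 and 8.17 at day 2, against 9.23, 9.01, 9.16 and 9.23 at day 0, and in the fit of every probe set all 5 of its probe sets were called in this direction. This pair of groups did not overlap either, with a difference of -0.95 ± 0.20 (adjusted p = 0.00220).

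The nuclear phosphatases followed. Dusp4, which dephosphorylates ERK in the nucleus, measured 7.94, 8.11, 8.43, 6.85 and 7.19 at day 2, against 10.47, 8.53, 9.20 and 9.63 at day 0. Its groups did not overlap, though day 2 replicate 3 and day 0 replicate 2 came within 0.10 of each other, and the difference was -1.75 ± 0.43 (adjusted p = 0.00577). Dusp5, a nuclear ERK phosphatase too, had 7.92, 8.67, 8.55, 7.51 and 7.65 at day 2, against 9.62, 8.71, 8.71 and 9.68 at day 0. Day 2 replicates 2 and 3 lay just under day 0 replicates 2 and 3, and the difference was -1.12 ± 0.25 (adjusted p = 0.00250). Spry4 fell by 0.89 ± 0.21 on the log2 scale (adjusted p = 0.00406) with overlapping groups. Spred1 differed by -0.56 ± 0.19 (adjusted p = 0.0386) and lost its call in 6 of the 9 fits that left out a tumour, those without day 2 replicates 1, 4 or 5 or day 0 replicates 2, 3 or 4. Dusp6, the cytoplasmic ERK phosphatase, measured 10.11, 11.17, 11.02, 10.18 and 10.49 at day 2, against 11.04, 10.97, 10.91 and 11.39 at day 0. Day 2 replicates 2 and 3 lay within the day 0 range, and its difference of -0.48 ± 0.24 was not called (adjusted p = 0.162), nor was that of Spry1, -0.38 ± 0.25 (adjusted p = 0.312). Once the set was held as a block, all 7 called inhibitors kept a negative sign and none was called, at adjusted p-values from 0.18 to 0.94.

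**Figure D2:**
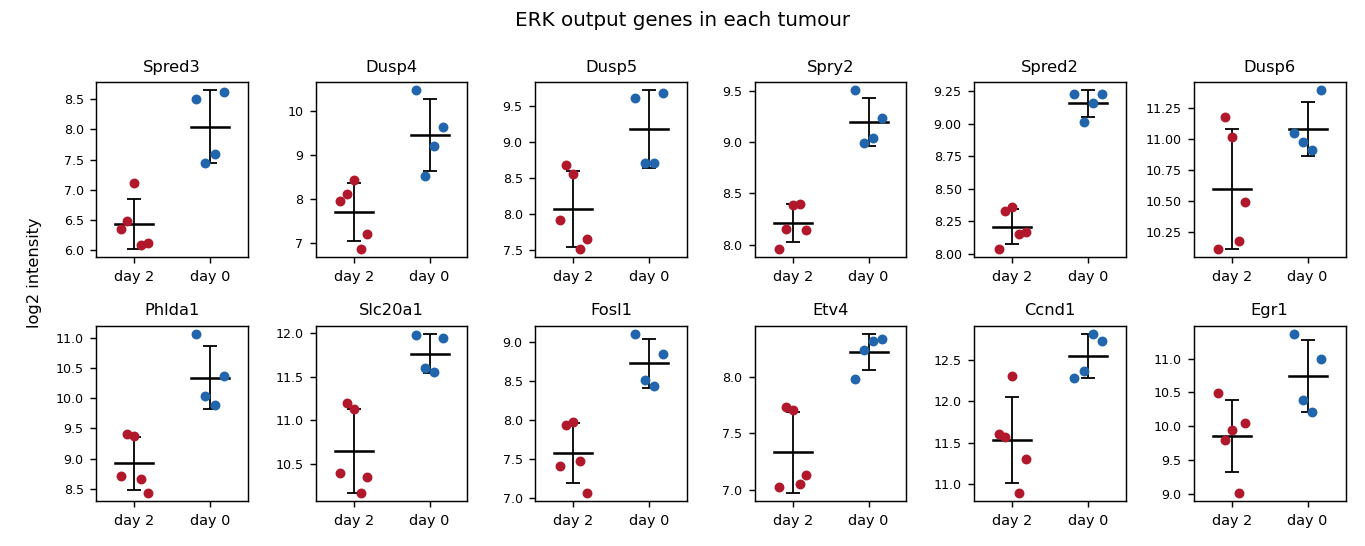
Log2 intensity of 12 ERK output genes in each tumour, day 2 left and day 0 right in each panel. Points are tumours, horizontal bars are group means and error bars are SD. Spred3, Dusp4, Dusp5, Spry2, Spred2, Phlda1, Slc20a1, Fosl1 and Etv4 show no overlap between the groups, whereas Dusp6, Ccnd1 and Egr1 do.

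Of 16 tested transcription factors that ERK induces, 2 fell and 0 rose, a number near the background of 15.1% called. Their median was -0.32. Etv4, an ETS factor of the PEA3 subfamily, measured 7.03, 7.74, 7.71, 7.05 and 7.13 at day 2, against 7.99, 8.23, 8.32 and 8.33 at day 0. Each day 2 tumour was below all day 0 tumours, at -0.89 ± 0.18 (adjusted p = 0.00135). Fosl1, a partner of Jun in AP-1, had 7.42, 7.94, 7.97, 7.47 and 7.07 at day 2, against 9.10, 8.51, 8.43 and 8.84 at day 0. It was lower by the same rule, at -1.15 ± 0.34 (adjusted p = 0.0188), but was not called without day 2 replicate 5, day 0 replicate 1 or day 0 replicate 4. The related ETS factor Etv5 differed by -0.28 ± 0.27 (adjusted p = 0.505) and Egr1, an immediate early zinc finger factor, by -0.88 ± 0.36 (adjusted p = 0.0888). Fos at 0.08 and Myc at 0.02 showed no called difference (adjusted p = 0.916 and 0.975). With the set held constant, neither called factor passed, at adjusted p-values of 0.57 and 0.61.

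Among 17 other ERK output genes 7 fell and 0 rose, with a median of -0.80. Phlda1, a pleckstrin-homology protein, measured 8.71, 9.41, 9.38, 8.66 and 8.43 at day 2, against 11.07, 10.04, 9.88 and 10.37 at day 0, a difference of -1.42 ± 0.31 (adjusted p = 0.00248). Its groups did not overlap. Slc20a1, a phosphate transporter, had 10.40, 11.20, 11.14, 10.17 and 10.36 at day 2, against 11.97, 11.60, 11.55 and 11.94 at day 0, a difference of -1.11 ± 0.26 (adjusted p = 0.00479). Here too the groups were apart, and both of its probe sets were called. Ccnd1, the D-type cyclin that drives entry into the cell cycle, had 11.61, 11.57, 12.31, 10.90 and 11.31 at day 2, against 12.28, 12.36, 12.81 and 12.73 at day 0. Only day 2 replicate 3 reached the day 0 range, and the difference was -1.01 ± 0.27 (adjusted p = 0.0102). Hbegf, Il11, Lif and Epha2, secreted factors and a receptor, fell by 0.71 to 1.45 on the log2 scale with overlapping groups. All 4 lost their call when day 2 replicate 5 or either of day 0 replicates 1 and 4 was left out, in which fits the list had 3 called members. Without day 2 replicate 1 it had 4. Under the block the adjusted p-values of the 7 genes were 0.36 to 0.80.

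Of 14 tested RAS, RAF, MEK and ERK pathway genes 2 fell and 0 rose, a number near the background of 15.1% called. Map2k2, which encodes MEK2, measured 9.62, 9.55, 9.34, 8.79 and 8.81 at day 2, against 10.03, 10.08, 10.05 and 10.17 at day 0, without overlap and with a difference of -0.86 ± 0.18 (adjusted p = 0.00187). In the block fit its difference turned to 0.10 (adjusted p = 0.94). Its paralogue Map2k1 differed by 0.03 ± 0.14 (adjusted p = 0.900). Elk1, an ETS factor that ERK phosphorylates, fell by 0.36 on the log2 scale (adjusted p = 0.0184), and not without day 0 replicate 4 (adjusted p = 0.0704 in that fit). With the block its adjusted p was 0.85.

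Of 21 receptor tyrosine kinases 1 rose and 2 fell, a number near the background of 15.1% called. The number that fell was 4 without day 2 replicate 3 and 0 without day 0 replicate 1. The one that rose was Csf1r, the receptor of macrophage colony-stimulating factor, at 0.91 ± 0.25 (adjusted p = 0.0118). It is also a macrophage marker, and its call was lost without day 0 replicate 3 or 4. Fgfr1 had 9.38, 9.60, 9.66, 9.83 and 9.78 at day 2, against 11.38, 10.52, 10.14 and 10.34 at day 0, without overlap. Its difference of -0.94 ± 0.28 (adjusted p = 0.0211) was not called without day 0 replicate 1, the highest tumour (adjusted p = 0.131). Erbb3, a neuregulin receptor often induced when BRAF is inhibited in human melanoma cells, differed by -0.07 (adjusted p = 0.897). Of 18 ligands 1 rose and 2 fell, also near the background. Gas6, the ligand of Axl, Mertk and Tyro3, measured 9.83, 9.62, 9.12, 8.77 and 10.52 at day 2, against 7.95, 8.44, 8.47 and 7.01 at day 0, a difference of 1.61 ± 0.42 (adjusted p = 0.00998) that was not called without day 0 replicate 4 (adjusted p = 0.0664). The groups were apart. Pdgfa, a platelet-derived growth factor chain, fell by 0.81 ± 0.20 on the log2 scale (adjusted p = 0.00560). No receptor or ligand passed with the set as a block, at adjusted p-values from 0.25 to 0.80.

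Among 23 PI3K and FOXO genes 2 rose and 2 fell, a number near the background of 15.1% called. Txnip, an inhibitor of thioredoxin and of glucose uptake, measured 11.14, 10.87, 10.48, 10.93 and 11.66 at day 2, against 9.67, 9.75, 9.11 and 9.41 at day 0. Each day 2 tumour was above every day 0 tumour, and the rise was 1.53 ± 0.24 (adjusted p = 0.000104), or 2.89-fold. It had an adjusted p of 0.058 with the set as a block, and the other called genes of the list 0.37 to 0.94. Pik3r2, a regulatory subunit of PI3K, had 8.27, 8.08, 8.18, 8.05 and 7.97 at day 2, against 9.11, 8.61, 8.67 and 8.49 at day 0, also apart, at -0.61 ± 0.14 (adjusted p = 0.00366). Irs2, an insulin receptor substrate, fell by 0.91 ± 0.24 on the log2 scale (adjusted p = 0.0110), and Sesn1, a sestrin that restrains mTORC1, rose by 0.88 ± 0.23 (adjusted p = 0.0106). These calls were lost without day 0 replicate 1 for Irs2 and without day 0 replicate 4 for Sesn1.

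Among cell cycle genes, most calls fell in G1 control. Of 21 G1 cyclins, kinases and inhibitors 2 rose and 4 fell, against 15.1% of all genes called, and 2 fell without day 0 replicate 4. Cdkn2b, the p15 inhibitor of the cyclin D kinases, measured 8.47, 8.44, 8.66, 7.76 and 7.53 at day 2, against 9.21, 9.38, 9.69 and 9.36 at day 0. Its groups did not overlap, at -1.23 ± 0.23 (adjusted p = 0.000536). Rb1, the retinoblastoma protein that holds E2F, had 8.54, 8.43, 8.29, 8.57 and 8.78 at day 2, against 7.82, 8.02, 8.17 and 7.46 at day 0. It was higher in all 5 day 2 tumours, at 0.65 ± 0.14 (adjusted p = 0.00169). Rbl2, a relative of Rb1 active in resting cells, rose by 0.74 ± 0.18 (adjusted p = 0.00638, and 0.0534 without day 0 replicate 4). Cdkn1a, the p21 inhibitor, fell by 1.06 ± 0.32 on the log2 scale (adjusted p = 0.0238) and lost its call without day 2 replicate 1, day 0 replicate 1 or day 0 replicate 4. Cdk6 fell by 0.54 ± 0.17 (adjusted p = 0.0261) with calls lost in 5 left-out fits, those without day 2 replicates 2, 4 or 5 or day 0 replicates 3 or 4. The 6 called G1 genes had adjusted p-values from 0.15 to 0.87 with the set as a block, and all 6 kept their sign.

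By comparison, none of 28 DNA replication genes was called by limma, with 3 at an unadjusted p under 0.05 and a median of -0.14. Of 29 mitosis genes 1 fell and 0 rose, with a median of -0.18 and 1 at an unadjusted p under 0.05. The one called was Foxm1, a transcription factor of G2 and mitosis, at -0.38 ± 0.10 (adjusted p = 0.00648). With the set as a block Foxm1 kept its sign and was not called (adjusted p = 0.95). In that fit the mitosis median was -0.73, with 0 of 29 differences positive, and the DNA replication median was 0.02. Mki67, the proliferation antigen, measured 10.84, 9.72, 9.98, 9.59 and 10.14 at day 2, against 9.62, 10.05, 10.48 and 10.60 at day 0. The groups overlapped widely, with the highest value in day 2 replicate 1 and the lowest in day 2 replicate 4, and the difference was -0.13 ± 0.37 (adjusted p = 0.841). A difference with that SE does not show that the groups were alike.

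Of 16 p53 targets 1 rose and 3 fell, and of 14 BCL2 family genes 1 rose and 2 fell. Over all genes 6.74% rose and 8.35% fell. Of the p53 targets 0 fell without day 0 replicate 4 and 1 fell without day 2 replicate 3, day 2 replicate 5 or day 0 replicate 1, and of the BCL2 family 0 fell without day 2 replicate 5 or day 0 replicates 1 or 4. Fas, a death receptor that T cells also carry, measured 7.56, 7.42, 7.02, 6.96 and 7.53 at day 2, against 6.30, 6.84, 6.49 and 6.49 at day 0, a rise of 0.77 ± 0.15 (adjusted p = 0.00110) with no overlap. Bid, which links death receptors to mitochondria, rose by 0.71 ± 0.18 (adjusted p = 0.00783). Bcl2l11, the BIM protein whose degradation ERK promotes, had 9.97, 9.74, 9.94, 9.73 and 9.53 at day 2, against 10.97, 10.48, 10.38 and 11.26 at day 0. It was lower in all 5 day 2 tumours, at -0.99 ± 0.33 (adjusted p = 0.0379), and was not called without day 2 replicates 2, 4 or 5 or day 0 replicates 1 or 4. No called gene of either list passed with the set as a block, at adjusted p-values from 0.26 to 0.95. In that fit 3 of the 4 called p53 targets and 2 of the 3 called BCL2 family genes kept their sign.

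Some melanocyte and neural crest factors were lower. Of 16 melanocyte lineage genes 1 rose and 3 fell (1 fell without day 2 replicate 5 or day 0 replicate 3), with a median of -0.06. The mean over that list ran from 6.75 to 7.20 at day 2 and from 6.77 to 6.96 at day 0, so the groups overlapped. Of 13 neural crest genes 1 rose and 5 fell, with a median of -0.62. The mean over the neural crest list was 8.37, 8.17, 8.43, 8.48 and 8.36 at day 2, against 8.97, 8.69, 8.94 and 8.74 at day 0, with no overlap. Pax3, a paired-box factor upstream of Mitf, measured 7.07, 7.48, 7.27, 7.94 and 6.23 at day 2, against 8.79, 8.93, 8.94 and 8.66 at day 0. Every day 2 tumour was below day 0, at -1.63 ± 0.39 (adjusted p = 0.00501), and its 3 probe sets were called in this direction. Sox10, the factor that specifies melanocytes and glia from neural crest, had 8.94, 8.97, 9.36, 9.97 and 8.80 at day 2, against 10.12, 9.85, 10.61 and 10.46 at day 0. Only day 2 replicate 4 reached the day 0 range, and the difference was -1.05 ± 0.30 (adjusted p = 0.0159). All 3 probe sets of Sox10 were lower, and 1 of them was called in the fit of every probe set. Its call was lost without day 2 replicate 5, day 0 replicate 3 or day 0 replicate 4, and with the set as a block its difference turned to 0.12 (adjusted p = 0.96).

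Mitf, the master regulator of the lineage, measured 8.67, 7.99, 8.17, 7.89 and 8.53 at day 2, against 7.83, 8.06, 7.80 and 7.24 at day 0. The groups overlapped and its difference of 0.52 ± 0.31 was not called (adjusted p = 0.265). Rab27a, which moves melanosomes and also granules of cytotoxic cells, measured 8.16, 6.74, 6.02, 5.75 and 7.02 at day 2, against 5.52, 5.45, 5.18 and 5.24 at day 0, a rise of 1.39 ± 0.33 (adjusted p = 0.00440) with no overlap. Of the pigment enzymes and melanosome proteins, Tyrp1 differed by 0.17, Dct by -0.04, Pmel by 0.18 and Mlana by 0.10, with adjusted p-values from 0.382 to 0.955.

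In the neural crest list, Nes, the intermediate filament nestin, had 9.06, 9.33, 9.86, 9.08 and 8.72 at day 2, against 10.57, 9.96, 10.65 and 10.93 at day 0. It was lower in all 5 day 2 tumours, at -1.32 ± 0.24 (adjusted p = 0.000457). Tfap2a, an AP-2 factor of crest and melanocytes, measured 8.14, 8.78, 9.13, 9.41 and 9.16 at day 2, against 10.09, 9.88, 9.97 and 10.30 at day 0, also apart, at -1.14 ± 0.28 (adjusted p = 0.00560). Sox5 fell by 0.62 ± 0.13 (adjusted p = 0.00210), and Twist1 and Zeb1, factors of epithelial to mesenchymal change, fell by 0.84 ± 0.24 (adjusted p = 0.0153) and 0.75 ± 0.19 (adjusted p = 0.00765). Zeb2, the Zeb1 relative found in melanocytes, rose by 0.75 ± 0.24 (adjusted p = 0.0335), was not called without any 1 of day 2 replicates 1, 4 or 5 or day 0 replicates 1, 2 or 4, and turned to -0.21 with the set as a block (adjusted p = 0.90). Ngfr, a crest receptor often high in therapy-tolerant human melanoma cells, differed by -0.01 ± 0.33 (adjusted p = 0.984). With the set held constant, the called crest genes had adjusted p-values of 0.25 to 0.95.

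Of 15 glycolysis genes 3 fell and 0 rose, with a median of -0.41 and 14 of 15 differences negative. Hk1, a hexokinase, measured 9.59, 9.54, 9.77, 9.27 and 9.58 at day 2, against 10.68, 10.36, 10.58 and 10.78 at day 0. The groups lay well apart, at -1.05 ± 0.24 (adjusted p = 0.00358), but with the set as a block the difference was 0.02 (adjusted p = 0.99). Pgk1 and Pfkl fell by 0.41 ± 0.12 (adjusted p = 0.0174) and 0.89 ± 0.27 (adjusted p = 0.0255), and neither was called without day 0 replicate 4. Pfkl was not called without day 2 replicate 4, day 2 replicate 5 or day 0 replicate 1 either. Of 18 hypoxia-induced genes 2 fell (0 without day 2 replicates 4 or 5 or day 0 replicates 1 or 4), of 18 ATF4 targets 3 fell (1 without day 2 replicate 4, day 2 replicate 5, day 0 replicate 1 or day 0 replicate 4) and of 28 ribosome biogenesis genes 2 fell (0 without day 2 replicate 4 or day 0 replicates 1 or 4), while 0 rose in these 3 lists. In 21 respiratory chain genes 2 rose, in 17 cholesterol genes 1 rose, and 0 fell in either. Over all genes 6.74% rose and 8.35% fell. No called gene of these 5 lists passed with the set as a block, at adjusted p-values from 0.091 to 0.92. The called genes of ribosome biogenesis and of the respiratory chain changed sign, and of the 3 called ATF4 targets 2 kept theirs. None of 16 heat shock and unfolded protein genes was called by limma, with 2 at an unadjusted p under 0.05. The robust fit called 0 of these 16 genes and 0 of the 28 DNA replication genes as well.

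Of 31 tested macrophage and monocyte genes 15 rose and 0 fell, against 6.74% of all genes higher, with a median of 1.30. The count ran from 10 without day 0 replicate 4 to 18 without day 2 replicate 4. Over the list the mean was 10.35, 10.55, 9.94, 9.31 and 9.63 at day 2, against 9.16, 9.23, 8.48 and 8.28 at day 0. Each day 2 tumour was above each day 0 tumour, though day 2 replicate 4 was only 0.08 above day 0 replicate 2. Apoe, a lipid carrier made by macrophages and by other cells, is among the LXR targets. It measured 13.47, 13.31, 13.15, 13.27 and 13.21 at day 2, against 10.27, 11.57, 11.48 and 9.26 at day 0. The day 2 tumours lay within 0.32 of each other while the day 0 tumours spread over 2.31, and the rise was 2.64 ± 0.37 (adjusted p = 5.94e-05), or 6.23-fold. Apoc1, its neighbour in the apolipoprotein family, rose by 1.91 ± 0.49 (adjusted p = 0.00860). Of the 13 Apoe and LXR target genes these 2 alone were called, and the cholesterol exporters Abca1 and Abcg1 differed by 0.49 (adjusted p = 0.0978) and 0.05 (adjusted p = 0.902). Under the block Apoe and Apoc1 kept a positive sign and neither was called, at adjusted p-values from 0.14 to 0.62.

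Lyz2, macrophage lysozyme, measured 13.63, 13.16, 12.44, 12.80 and 13.04 at day 2, against 11.36, 11.92, 11.03 and 9.96 at day 0. The groups were apart, at 1.94 ± 0.29 (adjusted p = 8.80e-05). C1qb, a chain of the complement starter C1q that tissue macrophages make, had 12.21, 12.42, 11.94, 11.46 and 11.46 at day 2, against 10.30, 11.05, 9.87 and 8.60 at day 0. It was higher in all 5 day 2 tumours, at 1.94 ± 0.36 (adjusted p = 0.000628), with its 3 probe sets called in this direction. Cd68, a lysosomal membrane protein of phagocytes, rose by 1.54 ± 0.33 (adjusted p = 0.00207), Fcgr3, an Fc receptor, by 1.30 ± 0.26 (adjusted p = 0.00112), and Tyrobp, the DAP12 adaptor, by 1.66 ± 0.38 (adjusted p = 0.00333). Mpeg1, perforin-2 of macrophages, rose by 1.92 ± 0.42 (adjusted p = 0.00260). Not called in the list, among others, were the mannose receptor Mrc1, which differed by 0.61 (adjusted p = 0.140), arginase Arg1 by 0.83 (adjusted p = 0.503), Trem2 by 0.77 (adjusted p = 0.0527) and Cd163 by 0.79 (adjusted p = 0.589). Under the block all 15 called genes kept a positive sign and none was called, at adjusted p-values from 0.081 to 0.88.

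Of 27 lysosomal genes 5 rose and 0 fell, against 15.1% of all genes called, with a median of 0.10. The 5 were Ctss, Ctsz, Ctsh, Lgmn and Laptm5, proteases and a membrane protein that phagocytes express highly. Ctss, cathepsin S, measured 13.22, 13.49, 13.07, 13.02 and 13.32 at day 2, against 12.54, 12.51, 11.64 and 11.67 at day 0. All 5 day 2 tumours were above day 0, at 1.13 ± 0.19 (adjusted p = 0.000221). No lysosomal gene passed with the set as a block, at adjusted p-values from 0.076 to 0.60. The widely expressed Lamp1, Psap and Ctsd differed by 0.00, 0.09 and 0.10 and were not called (adjusted p from 0.797 to 0.990). Lgmn was not called without day 0 replicate 4 (adjusted p = 0.0755).

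Of 14 complement genes tested, 11 rose and 1 fell, with a median of 1.43. Cfb, the protease factor of the alternative pathway, measured 9.19, 8.69, 8.27, 9.00 and 9.65 at day 2, against 6.47, 8.07, 6.72 and 6.43 at day 0. Day 0 replicate 2 was well above the other day 0 tumours and still below every day 2 tumour, and the rise was 2.04 ± 0.33 (adjusted p = 0.000169). C1s1 and C1ra, the proteases of C1, rose by 2.03 ± 0.39 (adjusted p = 0.000866) and 1.58 ± 0.34 (adjusted p = 0.00207), and Serping1, their inhibitor, by 1.71 ± 0.37 (adjusted p = 0.00245). C3ar1, an anaphylatoxin receptor of myeloid cells, rose by 1.42 ± 0.32 (adjusted p = 0.00344). The one that fell was Masp1, a protease of the lectin pathway, at -1.08 ± 0.37 (adjusted p = 0.0404), with its call lost without day 2 replicates 1, 3 or 5 or day 0 replicates 1, 2 or 4. In the block fit the 12 called genes kept their sign at adjusted p-values from 0.083 to 0.87.

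Mast cell genes rose as a group: 8 of 9 tested rose and 0 fell, with a median of 1.76. The list mean was 8.23, 8.66, 10.00, 9.01 and 9.81 at day 2, against 6.64, 7.60, 7.68 and 7.61 at day 0, with no overlap and with day 0 replicate 1 the lowest. Cpa3, mast cell carboxypeptidase, measured 9.77, 10.02, 11.57, 9.87 and 10.81 at day 2, against 6.53, 8.51, 8.92 and 8.07 at day 0, a rise of 2.40 ± 0.65 (adjusted p = 0.0114, and 0.0692 without day 0 replicate 1). Fcer1a, the IgE-binding chain of the high-affinity receptor, had 7.22, 8.13, 10.21, 8.33 and 9.39 at day 2, against 5.42, 6.62, 6.84 and 6.16 at day 0. Its groups did not overlap, at 2.40 ± 0.58 (adjusted p = 0.00560), and its call held in every left-out fit. Without day 0 replicate 1 only 2 of the list were called, and without day 2 replicate 5 only 4. Once the set was held as a block, the 8 genes kept their sign at adjusted p-values from 0.33 to 0.87.

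Among 19 neutrophil genes 3 rose and 0 fell, against 15.1% of all genes called, with a median of 1.35. S100a9, a calcium-binding protein that fills neutrophils, measured 14.13, 12.69, 12.33, 12.05 and 13.42 at day 2, against 9.45, 6.54, 7.88 and 10.09 at day 0. The groups were 1.96 apart at their nearest, and the rise of 4.44 ± 0.93 (adjusted p = 0.00176) came to 21.7-fold. Its partner S100a8 had 13.92, 12.80, 12.48, 12.09 and 13.40 at day 2, against 12.04, 9.42, 8.83 and 10.89 at day 0, at 2.64 ± 0.74 (adjusted p = 0.0146, and 0.0701 without day 0 replicate 3). Day 0 replicate 1 came within 0.05 of day 2 replicate 4. Stressed keratinocytes express both genes too, and the keratinocyte list, described below, spread over 5.01 within day 2. Day 2 replicate 1, the highest for both genes, had the lowest keratinocyte mean, 6.10. Replicate 5, the next for both, had the highest, 11.11, and the part of keratinocytes in these rises was not tested. The granule genes Ngp, Ltf, Camp and Elane, made mainly by immature neutrophils, differed by 0.94 to 1.99 and were not called (adjusted p from 0.166 to 0.214). They stood at 10.50 to 13.75 in day 2 replicate 1 and at no more than 7.27 in any other tumour of either group. The mean of the neutrophil list stood at 10.54 in day 2 replicate 1, far above the other day 2 tumours at 7.94 to 8.68, against 6.39 to 8.13 at day 0. Without day 0 replicate 3 the number called was 1, and with the set as a block the adjusted p-values of the 3 genes were 0.80 to 0.92.

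**Figure D3:**
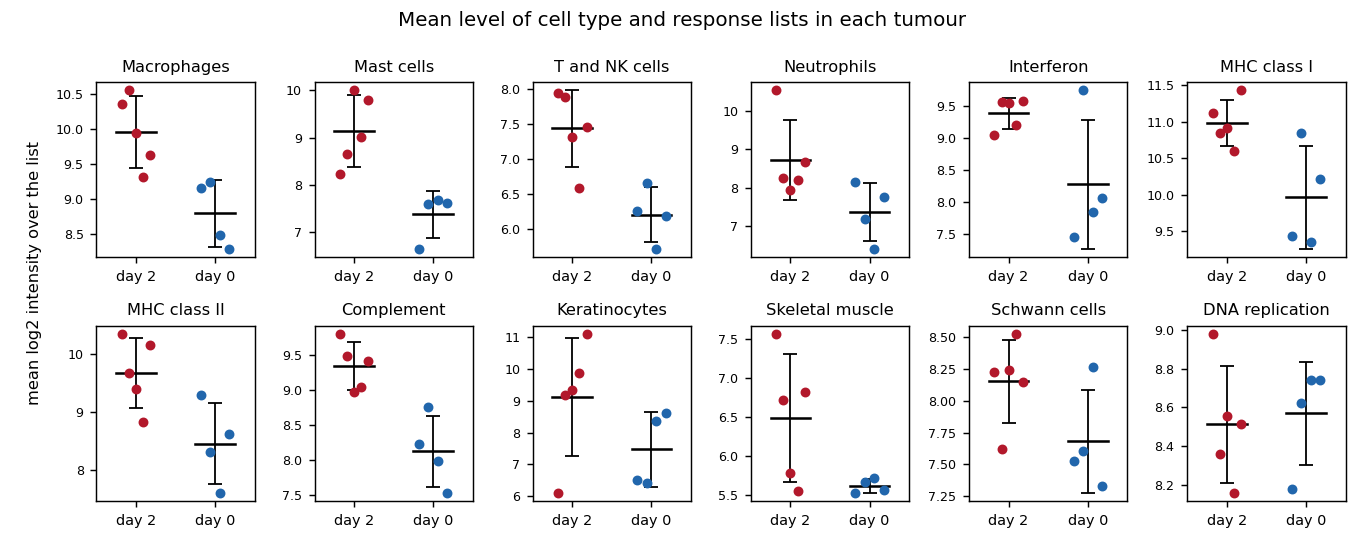
Mean log2 intensity over the tested genes of 12 lists in each tumour, day 2 left and day 0 right in each panel. Points are tumours, horizontal bars are group means and error bars are SD. The macrophage and mast cell lists do not overlap between the groups, and the interferon list overlaps through 1 high day 0 tumour.

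Of 26 T and NK cell genes 11 rose and 0 fell, with a median of 1.26. The list mean was 7.94, 7.88, 7.31, 6.59 and 7.46 at day 2, against 6.26, 6.66, 5.71 and 6.19 at day 0. Day 2 replicate 4 was below day 0 replicate 2, and without day 2 replicate 4 the number called was 21. Nkg7, a granule membrane protein, measured 9.86, 9.16, 8.03, 7.10 and 8.01 at day 2, against 5.83, 7.02, 5.55 and 5.91 at day 0, a rise of 2.35 ± 0.55 (adjusted p = 0.00417). Klrd1, the CD94 chain of NK receptors, had 8.82, 9.55, 8.58, 7.21 and 8.73 at day 2, against 6.81, 6.93, 4.73 and 5.62 at day 0, a rise of 2.56 ± 0.57 (adjusted p = 0.00298). In both genes day 2 replicate 4 was the lowest day 2 tumour and lay just above day 0 replicate 2.

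Ncr1, the NKp46 receptor of NK cells, rose by 1.64 ± 0.38 (adjusted p = 0.00424) and Klrk1, NKG2D, by 2.51 ± 0.53 (adjusted p = 0.00172). Cd3d rose by 1.54 ± 0.48 (adjusted p = 0.0284) and lost its call without day 2 replicates 1, 2 or 5 or day 0 replicates 3 or 4. Cd2 rose by 1.45 ± 0.39 (adjusted p = 0.0119). Cd8a measured 7.51, 6.23, 6.38, 5.33 and 7.19 at day 2, against 5.05, 5.87, 4.97 and 5.04 at day 0. Its groups overlapped through day 2 replicate 4, and the difference of 1.30 ± 0.50 was not called (adjusted p = 0.0746). Cd3e differed by 0.10 (adjusted p = 0.754) and Foxp3, the regulatory T cell factor, by 0.16 (adjusted p = 0.599). The cytotoxic genes Gzmb and Prf1 differed by 1.65 (adjusted p = 0.0525) and 1.23 (adjusted p = 0.0787). With the set as a block the adjusted p-values of the 11 genes were 0.039 to 0.45, and 1 of them, Ccl5, was called.

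Of 10 B and plasma cell genes 1 rose, Cd79b, at 0.91 ± 0.25 (adjusted p = 0.0128, and 0.0547 without day 0 replicate 4). The B cell list stood at 7.24 in day 2 replicate 1, with the other day 2 tumours at 5.67 to 6.23, against 5.58 to 5.68 at day 0. Of 11 dendritic cell genes 1 rose, Batf3, a factor of cross-presenting dendritic cells, and 1 fell, Fscn1, an actin-bundling protein. In both lists the number called was near the background of 15.1% called. The number of dendritic cell genes that rose was 3 without day 2 replicate 4 and 0 without day 2 replicate 1 or day 0 replicate 3. Fscn1 kept its call only in the fit without day 2 replicate 1. Cd79b, Batf3 and Fscn1 had adjusted p-values of 0.23, 0.081 and 0.82 with the set as a block.

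Interferon-response genes rose in part and depended on single tumours. Of 33 tested, 13 rose and 0 fell, with a median of 1.08. The list mean was 9.06, 9.58, 9.55, 9.21 and 9.58 at day 2, against 7.45, 9.75, 7.84 and 8.07 at day 0. Day 0 replicate 2 was thus above every day 2 tumour while the other 3 day 0 tumours were below all of them. Leaving that tumour out gave 29 called members. Leaving out day 0 replicate 1 gave 3, day 0 replicate 3 gave 5 and day 2 replicate 5 gave 7. Gbp7, a guanylate-binding protein induced by interferon gamma, measured 11.24, 10.93, 11.36, 11.22 and 11.90 at day 2, against 9.24, 11.03, 9.55 and 10.25 at day 0. Day 2 replicate 2 was below day 0 replicate 2, and the rise was 1.31 ± 0.28 (adjusted p = 0.00186).

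Irf9, the DNA-binding part of the interferon-stimulated complex ISGF3, had 7.94, 8.07, 7.92, 7.91 and 8.33 at day 2, against 6.90, 7.86, 7.10 and 7.32 at day 0. The groups were apart by 0.05, at 0.74 ± 0.17 (adjusted p = 0.00350). Gbp8 had 10.12, 8.12, 8.97, 7.08 and 10.77 at day 2, against 4.76, 6.78, 4.69 and 5.69 at day 0, a rise of 3.53 ± 0.85 (adjusted p = 0.00551) with no overlap. Among the 20 members that were not called, Ifit1 differed by 0.93 (adjusted p = 0.218), Mx1 by 1.42 (adjusted p = 0.0805), Oas1a by 0.96 (adjusted p = 0.131) and Irf7 by 0.91 (adjusted p = 0.190). Under the block the 13 called genes kept their sign at adjusted p-values from 0.079 to 0.63.

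Antigen presentation genes rose as well. Of 11 class I genes 8 rose and 0 fell, with a median of 0.95. B2m, the light chain shared by class I molecules, measured 13.85, 13.67, 13.60, 13.80 and 13.90 at day 2, against 12.70, 13.46, 12.50 and 13.11 at day 0. Each day 2 tumour was above day 0, at 0.82 ± 0.14 (adjusted p = 0.000283). The heavy chains H2-K1 and H2-D1 rose by 1.03 ± 0.18 (adjusted p = 0.000388) and 0.95 ± 0.17 (adjusted p = 0.000353), also without overlap. Because class I genes are near-identical in sequence, their probe sets may share signal. Psmb8 and Psmb9, subunits of the immunoproteasome, rose by 1.45 ± 0.37 (adjusted p = 0.00786) and 1.54 ± 0.42 (adjusted p = 0.0119), and neither was called without day 0 replicate 1. Psmb9 was not called without day 0 replicate 3 either. Without day 0 replicate 1 the class I list had 3 called genes and without day 0 replicate 3 it had 5. Of 9 class II genes 5 rose, with a median of 1.43, but leaving out any of day 2 replicates 1 and 5 or day 0 replicates 3 and 4 gave 0 calls, leaving out day 2 replicate 2 gave 1, day 0 replicate 2 gave 2 and day 2 replicate 3 gave 3. H2-Ab1, a class II beta chain, had 12.91, 12.49, 12.46, 12.08 and 13.27 at day 2, against 12.07, 10.63, 9.41 and 11.32 at day 0. The groups were 0.01 apart, and the rise was 1.79 ± 0.60 (adjusted p = 0.0402). In the block fit the adjusted p-values were 0.063 to 0.39 for the class I calls and 0.11 to 0.56 for the class II calls.

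The promoters of interferon genes carry a known element, bound by ISGF3 and by interferon regulatory factors, in which GAAA occurs at a short spacing. It was searched as GAAANNGAAA on both strands of the window from 250 bases before to 50 bases after each start site, in RefSeq promoters of build GRCm38.p6. It occurred in 943 of 27025 promoters (3.49%), in 48 of 767 genes called higher (6.26%), in 23 of 963 called lower (2.39%) and in 337 of 11461 tested genes (2.94%). Of the 13 interferon genes called, 9 had an entry and 7 of these held it (77.8%): Gbp2, Gbp3, Gbp7, Ifih1, Igtp, Irgm1 and Stat2. The list was made of known interferon-response genes, and its 20 members that were not called were not searched as a group. That share therefore does not tie the element to the rise at day 2. Of the 8 class I genes called, 7 had an entry and 2 held it, B2m and Erap1. A match is a description and no measure of binding. To show the element in its place, the promoters of 5 called genes that hold it follow, 5′ to 3′ on the gene's strand, in lower case with the element in capitals. Gbp7 lies at chr3:142530086-142530385 on the plus strand, Gbp2 at chr3:142620413-142620712 on the plus strand, Irgm1 at chr11:48871371-48871670 on the minus strand, Stat2 at chr10:128270248-128270547 on the plus strand and B2m at chr2:122147437-122147736 on the plus strand.
Gbp7: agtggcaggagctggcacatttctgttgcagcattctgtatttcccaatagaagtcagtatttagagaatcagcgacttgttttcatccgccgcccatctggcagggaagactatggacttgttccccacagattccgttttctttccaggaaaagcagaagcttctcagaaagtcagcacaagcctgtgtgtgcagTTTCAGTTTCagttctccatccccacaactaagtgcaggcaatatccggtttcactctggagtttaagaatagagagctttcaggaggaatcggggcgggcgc
Gbp2: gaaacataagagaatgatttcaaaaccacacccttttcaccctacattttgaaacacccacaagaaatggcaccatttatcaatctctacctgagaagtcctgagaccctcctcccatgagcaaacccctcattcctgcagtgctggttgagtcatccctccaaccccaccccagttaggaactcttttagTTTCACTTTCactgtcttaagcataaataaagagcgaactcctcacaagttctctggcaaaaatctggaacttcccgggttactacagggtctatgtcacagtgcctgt
Irgm1: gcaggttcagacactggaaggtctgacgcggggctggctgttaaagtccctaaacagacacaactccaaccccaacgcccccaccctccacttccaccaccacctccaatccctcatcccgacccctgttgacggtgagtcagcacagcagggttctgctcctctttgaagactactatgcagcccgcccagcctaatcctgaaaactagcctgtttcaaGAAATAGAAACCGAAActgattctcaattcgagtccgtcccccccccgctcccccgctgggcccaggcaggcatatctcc
Stat2: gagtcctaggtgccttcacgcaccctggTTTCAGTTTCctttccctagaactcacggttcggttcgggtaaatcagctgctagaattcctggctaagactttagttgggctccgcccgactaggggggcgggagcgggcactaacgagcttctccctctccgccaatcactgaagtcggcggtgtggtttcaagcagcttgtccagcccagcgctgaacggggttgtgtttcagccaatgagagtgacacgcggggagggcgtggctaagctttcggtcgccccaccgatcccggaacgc
B2m: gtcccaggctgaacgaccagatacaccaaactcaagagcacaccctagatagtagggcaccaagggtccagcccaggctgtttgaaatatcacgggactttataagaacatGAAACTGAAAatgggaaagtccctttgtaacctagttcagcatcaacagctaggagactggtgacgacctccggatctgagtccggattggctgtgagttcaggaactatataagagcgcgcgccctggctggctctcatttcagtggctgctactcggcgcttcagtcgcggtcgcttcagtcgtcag
In Gbp7 and Gbp2 the element began 53 and 59 bases before the start site, on the opposite strand. Irgm1 held 2 overlapping copies at 30 and 24 bases before the start, in Stat2 the element lay 222 bases before it on the opposite strand, and in B2m it lay 139 bases before it. Gbp2 measured 12.02, 11.70, 12.03, 11.63 and 12.66 at day 2, against 8.44, 11.75, 9.95 and 11.41 at day 0, a rise of 1.62 ± 0.44 (adjusted p = 0.0121, and 0.115 without day 0 replicate 1). Irgm1, an immunity-related GTPase, rose by 1.39 ± 0.41 (adjusted p = 0.0197), and Stat2, the partner of Irf9, by 0.79 ± 0.24 (adjusted p = 0.0270). Both overlapped through day 0 replicate 2 and lost their calls without day 2 replicate 5, day 0 replicate 1 or day 0 replicate 3. Stat2 lost its call without day 0 replicate 4 too. The AP-1 element, searched as TGANTCA, and the ETS element, searched as CCGGAAGT, both on both strands, were in 7.93% and 4% of all promoters. In tested genes the shares were 5.66% and 7.2%. Of the 7 ERK feedback inhibitors called, 5 had an entry and 0 held either, and of the 7 other ERK output genes called, 4 had an entry and 1, Lif, held the AP-1 element. Among the called interferon genes with an entry, Gbp2 and Irgm1 held the AP-1 element and Ifih1 the ETS element.

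Of 29 chemokine and receptor genes 10 rose, 0 fell and 19 were not called, with a median of 1.17, and leaving out day 0 replicate 1, 3 or 4 gave 4, 5 and 6 calls. Cxcl12, a stromal chemokine that binds Cxcr4, measured 11.93, 10.05, 9.54, 10.11 and 11.62 at day 2, against 8.44, 9.06, 8.48 and 8.40 at day 0. Every day 2 tumour was above day 0, with replicates 1 and 5 highest, at 2.05 ± 0.41 (adjusted p = 0.00104). Cxcl16, which macrophages shed, had 9.46, 10.22, 9.88, 9.23 and 10.07 at day 2, against 8.99, 8.81, 7.60 and 8.65 at day 0, at 1.26 ± 0.29 (adjusted p = 0.00328), also apart. Ccl5, which T and NK cells release, had 10.06, 9.30, 9.13, 8.65 and 10.24 at day 2, against 6.80, 8.75, 6.51 and 7.21 at day 0. Day 2 replicate 4 lay below day 0 replicate 2, and the rise was 2.16 ± 0.58 (adjusted p = 0.0110, and 0.039 with the set as a block).

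Cxcl13, the attractant of B cells, had 11.35, 8.28, 8.52, 9.95 and 11.19 at day 2, against 5.24, 6.84, 8.97 and 5.66 at day 0. Day 0 replicate 3 stood above day 2 replicates 2 and 3, and the rise was 3.18 ± 0.82 (adjusted p = 0.00855). Cxcl9 and Cxcl10, which interferon gamma induces, rose by 3.06 ± 0.90 (adjusted p = 0.0198) and 1.86 ± 0.57 (adjusted p = 0.0249). Both lost their calls without day 2 replicate 5, day 0 replicate 1 or day 0 replicate 3, and Cxcl10 without day 0 replicate 4. The neutrophil attractants Cxcl1, Cxcl2 and Cxcl5 differed by 0.07, 1.35 and 1.65 and were not called (adjusted p from 0.162 to 0.929).

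Among 12 checkpoint genes 5 rose and 1 fell, and the 1 that fell had the smallest p of all 14319 genes. The number that rose was 2 without day 0 replicate 3 and 3 without day 2 replicate 2, day 2 replicate 5 or day 0 replicate 4. Cd276, the B7-H3 ligand found on many tumour cells, measured 7.44, 7.70, 7.75, 7.39 and 7.42 at day 2, against 8.53, 8.61, 9.01 and 9.37 at day 0. The day 2 tumours lay within 0.36 of each other and all below day 0, at -1.34 ± 0.15 (adjusted p = 2.45e-06), or 2.53-fold lower. Its largest adjusted p in any left-out fit was 6.05e-05, without day 0 replicate 4, and with the set as a block it was 0.065 with a difference of -1.27. Ctla4, an inhibitory receptor of T cells, rose by 1.36 ± 0.31 (adjusted p = 0.00328). Cd274, the PD-L1 ligand, had 8.14, 8.45, 8.93, 7.75 and 9.30 at day 2, against 7.43, 7.97, 6.07 and 7.63 at day 0. Its groups overlapped, and the rise of 1.24 ± 0.38 (adjusted p = 0.0265) was lost without day 2 replicate 3, day 2 replicate 5 or day 0 replicate 3. Pdcd1, the receptor of that ligand, differed by 0.98 (adjusted p = 0.120). The 6 called genes kept their sign with the set as a block, at adjusted p-values from 0.065 to 0.81.

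Of 24 fibroblast and matrix genes 3 fell and 0 rose, a number near the background of 15.1% called. The 3 were the collagens Col4a1, Col4a2 and Col5a1. In this list 0 fell without day 2 replicates 2, 3 or 5 or day 0 replicate 1, and 1 fell without day 0 replicate 3 or 4. Of 18 matrix metalloproteinase genes 1 fell, Adamts1, and of 21 endothelial genes 1 fell, Flt1, a VEGF receptor, at -1.06 ± 0.28 (adjusted p = 0.00918, and 0.0550 without day 0 replicate 4). Pecam1, an endothelial adhesion molecule, differed by 0.26 (adjusted p = 0.653). In the TGF-beta, BMP and Id list 1 of 16 rose and 5 fell, against 8.35% of all genes lower, and 3 fell without day 2 replicates 1 or 5 or day 0 replicates 1 or 4. Id2, an inhibitor of basic helix-loop-helix factors, measured 10.18, 10.42, 9.99, 9.84 and 11.05 at day 2, against 8.50, 9.37, 8.64 and 8.05 at day 0. All 5 day 2 tumours were higher, at 1.66 ± 0.27 (adjusted p = 0.000181, and 0.063 with the set as a block). Smad7, the inhibitory Smad, had 7.78, 7.94, 7.99, 7.98 and 7.53 at day 2, against 8.67, 8.51, 8.51 and 8.37 at day 0, at -0.67 ± 0.15 (adjusted p = 0.00250) with no overlap. The called genes of these 4 lists kept their sign with the set as a block, at adjusted p-values from 0.063 to 0.91. Tgfb2 and Bmp7 fell by 0.99 ± 0.24 (adjusted p = 0.00509) and 0.56 ± 0.13 (adjusted p = 0.00395).

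Skin, muscle and nerve genes varied between tumours of 1 group. None of 26 keratinocyte and hair follicle genes was called by limma, or by its robust form, with 6 at an unadjusted p under 0.05. The list median was 1.55, and -1.15 with the set as a block. The list mean was 6.10, 9.18, 9.33, 9.88 and 11.11 at day 2, against 6.50, 6.40, 8.37 and 8.61 at day 0, so day 2 held the lowest and the highest tumour. Without day 2 replicate 1, the lowest, 7 of the list were called higher. None of 20 skeletal muscle genes was called by either fit, with 0 at an unadjusted p under 0.05. Muscle stood at 7.56, 6.72, 5.78, 5.55 and 6.82 at day 2, against 5.52, 5.66, 5.72 and 5.57 at day 0, highest in day 2 replicate 1. None of 9 adipocyte genes was called by either fit, with 1 at an unadjusted p under 0.05. Of 16 Schwann cell and nerve genes 3 rose and 1 fell, against 15.1% of all genes called, and 1 rose without day 2 replicate 4 or day 0 replicates 1 or 4. Mal, a myelin and epithelial proteolipid, had 7.60, 6.17, 7.34, 10.19 and 8.92 at day 2, against 5.06, 5.83, 6.79 and 5.28 at day 0, at 2.31 ± 0.62 (adjusted p = 0.0115). Its highest tumour, day 2 replicate 4, was also that of Mbp, myelin basic protein, at 11.43, and the part of skin, muscle or nerve in the other results was not tested.

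Outside the lists, the largest rises among called genes with no overlap included genes of myeloid and lymphoid cells as well as genes of other cells. Chil3, a chitinase-like protein of activated macrophages, measured 13.72, 12.16, 10.58, 8.40 and 10.61 at day 2, against 8.11, 7.79, 6.40 and 7.07 at day 0. Its day 2 tumours spread over 5.32, and the rise was 3.75 ± 0.94 (adjusted p = 0.00706). Ms4a4b, a membrane protein of T cells, had 9.47, 9.00, 8.35, 7.30 and 8.69 at day 2, against 5.62, 6.97, 4.56 and 5.08 at day 0, at 3.01 ± 0.60 (adjusted p = 0.00106). Of the 15 largest rises Ms4a4b alone was called with the set as a block (adjusted p = 0.026). The others had limma adjusted p-values from 0.051 (Calhm6) to 0.96 (Stfa2l1) in that fit. Cybb, the catalytic subunit of the phagocyte oxidase, had 11.71, 10.23, 10.01, 9.89 and 11.43 at day 2, against 8.22, 8.82, 6.47 and 7.95 at day 0, at 2.79 ± 0.46 (adjusted p = 0.000176). Clec10a, a lectin of macrophages and dendritic cells, rose by 2.84 ± 0.54 (adjusted p = 0.000795), Plac8 by 2.47 ± 0.40 (adjusted p = 0.000159), and Fgl2, which macrophages and T cells secrete, by 2.54 ± 0.40 (adjusted p = 0.000117). The transcript AW112010, which lymphocytes induce on activation, rose by 3.19 ± 0.61 (adjusted p = 0.000745).

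Mfap5, a protein of elastic microfibrils, rose by 2.77 ± 0.69 (adjusted p = 0.00686) and Cldn11, a tight junction protein of myelin, by 2.55 ± 0.59 (adjusted p = 0.00376). Asprv1, a protease of the cornified epidermis, had 8.55, 9.48, 8.99, 10.50 and 11.77 at day 2, against 5.67, 5.47, 8.52 and 6.92 at day 0. Its groups were 0.03 apart, and its difference of 3.22 ± 1.07 (adjusted p = 0.0383) was lost without day 2 replicates 2, 4 or 5 or day 0 replicates 1, 2 or 4 and turned to -1.22 with the set as a block (adjusted p = 0.87). Stfa2l1, a stefin, rose by 2.99 ± 0.77 (adjusted p = 0.00878) and turned to -0.26 with the block (adjusted p = 0.96). Of the same 15 largest rises, Wfdc21, Calhm6, Cd24a and Clec4a3 rose by 2.36 to 2.89. Wfdc21 lost its call without day 2 replicate 1, day 2 replicate 5 or day 0 replicate 4, and Cd24a without day 0 replicate 2. A limma fit of the 2 groups alone did not call Wfdc21 (adjusted p = 0.054) or Mfap5 (adjusted p = 0.061). For Mfap5, 1 of 2 probe sets was called in the fit of every probe set.

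The 15 largest falls outside the lists were likewise taken only from called genes with no overlap. Among them was Cspg4, the melanoma-associated chondroitin sulfate proteoglycan. It measured 7.32, 7.76, 8.21, 7.79 and 7.38 at day 2, against 9.06, 9.20, 9.95 and 9.52 at day 0. The difference was -1.74 ± 0.32 (adjusted p = 0.000527), and both of its probe sets were called. Itga5, the fibronectin receptor alpha chain, had 6.79, 7.09, 6.92, 6.47 and 6.57 at day 2, against 8.65, 8.22, 8.03 and 8.46 at day 0, at -1.57 ± 0.23 (adjusted p = 6.38e-05). Here the gap between the groups was 0.94, and its 4 probe sets were called in this direction. Itgb3, the beta chain of the vitronectin receptor and a marker of invasive melanoma, had 7.83, 7.77, 7.73, 6.31 and 7.18 at day 2, against 9.37, 8.31, 8.82 and 9.44 at day 0, at -1.62 ± 0.31 (adjusted p = 0.000849).

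Hspg2, the basement membrane proteoglycan perlecan, fell by 1.57 ± 0.34 (adjusted p = 0.00227), and Rasgrf1, an exchange factor that activates RAS, by 1.57 ± 0.30 (adjusted p = 0.000814). Nr2f2, an orphan nuclear receptor, fell by 1.54 ± 0.39 (adjusted p = 0.00765) with 5 of its 6 probe sets called in this direction. Lgr6, an R-spondin receptor, fell by 1.85 ± 0.41 (adjusted p = 0.00248), Samd5 by 1.86 ± 0.43 (adjusted p = 0.00370) and Slc14a1, a urea transporter, by 1.76 ± 0.44 (adjusted p = 0.00673). Zbed6, a repressor of Igf2, had 7.09, 7.45, 7.44, 7.38 and 5.94 at day 2, against 8.96, 8.47, 9.35 and 9.33 at day 0. It was the largest of these falls by the estimate, at -1.97 ± 0.44 (adjusted p = 0.00297), while Igf2 differed by 0.05 (adjusted p = 0.937). Once the set was held as a block, Cspg4, Itga5 and Itgb3 had adjusted p-values of 0.22, 0.52 and 0.74. Of the same 15 largest falls, Ap2b1, Mid1, Map1b, Prkg2 and AI506816 fell by 1.52 to 1.83 on the log2 scale. Map1b lost its call without day 2 replicate 5, day 0 replicate 3 or day 0 replicate 4, Prkg2 in each left-out fit but those without day 2 replicates 2 or 3, and AI506816 in each but those without day 0 replicates 1 or 2. Prkg2 turned to 0.19 with the block. A limma fit of the 2 groups alone did not call Ap2b1 (adjusted p = 0.090) or AI506816 (adjusted p = 0.144). In the fit of every probe set, 1 of 2 probe sets was called for Itgb3 and for Zbed6. There 1 of 3 was called for Map1b and for Prkg2, and 2 of 3 for Rasgrf1.

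Day 2 was also set against its neighbours in time. Against day 1, 1068 genes were called (7.46%), 395 higher (2.76%) and 673 lower (4.70%). Of these calls 37.0% were higher. That share was 24.5% with arrays centred on their medians, 50.0% where the probe sets of each gene were averaged and 58.3% over single probe sets, and which direction prevails depends on these settings. Against day 3 limma called 0 genes, with 617 at an unadjusted p under 0.05 and a smallest adjusted p of 0.998, and the robust fit called 0 as well. The arrays of days 2 and 3 all lay in 1 spike-in set. Those of day 0 and 6 of the 7 of day 1 lay in other sets, so set and time cannot be told apart across these counts. Of the 2161 genes called against day 0, 384 (17.8%) were also called against day 1, and the comparisons share the day 2 tumours. With the set held constant, 0 genes were called against day 1, with 334 at an unadjusted p under 0.05. Without day 2 replicate 5 the count against day 1 was 538, and without day 2 replicate 3 it was 604.

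Day 1 was not tested against day 0. Group means at days 0, 1, 2 and 3 were 10.64, 13.34, 13.28 and 13.55 for Apoe, and 11.07, 13.00, 13.01 and 13.07 for Lyz2. For Spred3 they were 8.04, 6.91, 6.43 and 6.12, and for Dusp4 they were 9.46, 8.20, 7.70 and 7.38. Neither Spred3 (difference from day 1 -0.48 ± 0.19, adjusted p = 0.109) nor Dusp4 (-0.49 ± 0.37, adjusted p = 0.470) was called between days 2 and 1. Cd276 was, with means of 8.88, 8.21, 7.54 and 7.56 and a difference from day 1 of -0.67 ± 0.13 (adjusted p = 0.00251). Sox10 was lower at day 2 than at day 1, with a difference of -1.48 ± 0.26 (adjusted p = 0.00142), with means of 10.26, 10.69, 9.21 and 9.60. Its mean at day 1 was thus above that at day 0, and 6 of the 7 day 1 arrays lay in a spike-in set that held no array of days 0, 2 or 3. Net1, a RhoA exchange factor, had the largest called rise over day 1, 1.73 ± 0.31 (adjusted p = 0.00142), with means of 7.68, 6.12, 7.85 and 7.75. Dcun1d1, a neddylation co-factor, followed at 1.54 ± 0.24 (adjusted p = 0.000473), with means of 7.22, 6.72, 8.26 and 8.25. Clec5a, Sp3, Has3 and Mbnl3 rose over day 1 by 1.10 to 1.47, and Ap2b1, Gpx3, Aebp1, Heyl and Lgi4 fell below it by 1.17 to 1.47 on the log2 scale.

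**Figure D4:**
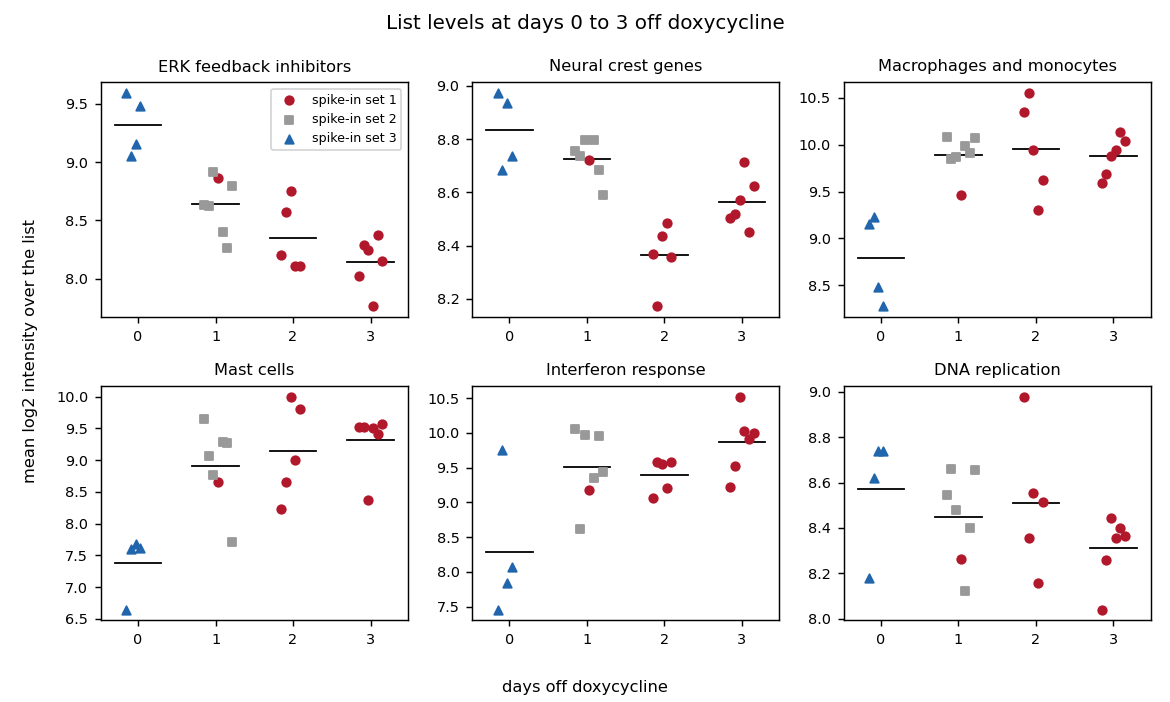
Mean log2 intensity over 6 gene lists in each tumour of days 0, 1, 2 and 3 off doxycycline. Points are tumours, their shape and colour give the spike-in set, and black bars are group means. The day 0 tumours share set 3, the tumours of days 2 and 3 share set 1, and 6 of 7 day 1 tumours are in set 2.

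With the set as a block, 30 genes were called in the same direction as without it. Among them, Ccl5, Ms4a4b, Gimap3, Gpr18, Gpr65, Cst7, Klhl6, Lpxn, Ptpn22, Sla, Inpp5d, Arhgap25, Aoah and Pld4 are known from leukocytes, and they were named here after their values had been seen. They are only a part of the 30, and the share of leukocyte genes among all genes tested was not counted. This choice therefore cannot show which kind of gene passes with the block. Icam1, the endothelial and leukocyte adhesion molecule, measured 9.17, 8.72, 8.27, 8.29 and 9.44 at day 2, against 7.72, 7.95, 6.96 and 7.29 at day 0. Every day 2 tumour was higher, at 1.30 ± 0.30 (adjusted p = 0.00421), and with the block the difference was 2.86 (adjusted p = 0.025). Gpr18, a receptor of lymphocytes, had 8.09, 7.56, 7.05, 6.38 and 7.98 at day 2, against 6.33, 6.16, 5.50 and 5.89 at day 0, at 1.44 ± 0.35 (adjusted p = 0.00560) and 2.75 with the block (adjusted p = 0.039). Dusp10, a phosphatase of p38 and JNK, had 6.39, 6.66, 6.36, 6.43 and 6.42 at day 2, against 7.32, 7.18, 7.09 and 6.75 at day 0. It was lower in all 5 day 2 tumours, at -0.63 ± 0.21 (adjusted p = 0.0345), and with the block at -1.82 (adjusted p = 0.025). Without day 2 replicates 1, 3, 4 or 5 or day 0 replicates 1, 2 or 3 its call was lost.

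**Figure D5:**
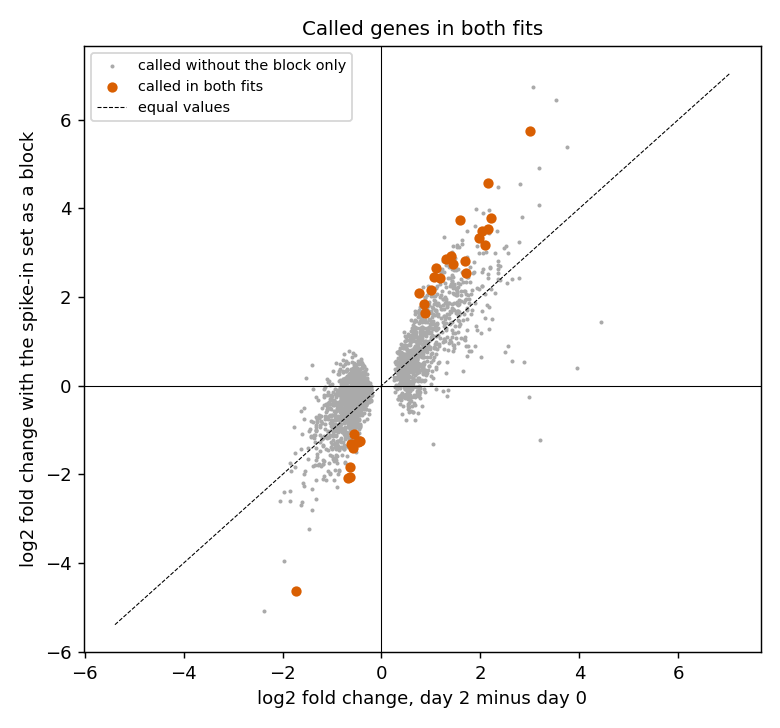
Log2 difference, day 2 minus day 0, of each called gene without the spike-in set as a block (x axis) and with it (y axis). Points are genes, the 30 called in both fits in orange, and the dashed line marks equal values. Of 2161 genes 84.5% have the same sign in both fits.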

How the data were processed

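RNA of the 41 tumours was hybridised to Affymetrix Mouse Genome arrays, per the labels. The authors deposited linear intensity values for 45101 probe sets, with arrays on nearly equal quantiles. The submitters' processing notes name RMA and MAS5, with no version or role; a genome build is not given in the sources used here. Of the probe sets, 34958 carried 1 gene symbol in the platform annotation and 932 several; 9211 had none and stayed unnamed. From the deposited intensities, log2 values were computed after adding a pseudocount of 16, which understates differences of dim genes, and quantile normalised. Each gene was read from its brightest one-gene probe set, and kept where that exceeded the 40th percentile in at least 3 arrays, giving 14319 of 18194 genes. limma 3.58.1 (R 4.3.3) was fitted to the group means of all 41 tumours, so that the 9 groups share 1 estimate of the spread, with Benjamini-Hochberg adjustment over all genes. A gene was called at an adjusted p under 0.05. Beside a difference, ± is the SE from this fit. Spike-in sets were defined from the arrays, by a log2 level of 12 for bioD and 9.4 for dap. The fit was tested on simulated data. Plots used Python 3.11.15 and matplotlib 3.10.9. Promoters came from RefSeq tables.

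The members and the 44 gene lists were chosen with earlier results of these data known. Named outside the lists were the 15 largest called rises and 15 largest called falls with no overlap between groups, and for day 1 the 6 largest of each; the genes called with the block were named after their values were seen. Alternatives changed the centring, pseudocount, filter, probe set rule, fit, samples and covariates, and left out each tumour. List counts with a tumour left out or with the block were added after the data had been seen. Some genes are not reported here. The number of arrays limits the precision.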

Additional observations from a re-analysis of the deposited data

Results flagged for a closer look

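Single tumours stood apart from the rest of their group in 7 of 86 list means tested and in 10 of 324 groups of called named genes. Chance alone flags about 1 in 20 such groups. Among list means, day 2 replicate 1 was high for neutrophil genes at 10.54, with the other day 2 tumours at 7.94 to 8.68, and low for p53 targets at 8.513. Day 2 replicate 5 was high for cholesterol genes at 9.044. Day 0 replicate 1 was low for mast cell genes at 6.644 and for respiratory chain genes at 10.53, and high for heat shock genes at 10.9 and for matrix metalloproteinase genes at 10.24.

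Among genes at day 2, Fscn1 was high at 10.9 and Has3 low at 5.191 in replicate 1, Dusp10 was high at 6.659 in replicate 2, and Zbed6 was low at 5.943 in replicate 5. Among day 0 tumours, replicate 2 was high for Ifih1 at 10.33, Cxcl12 at 9.062 and Calhm6 at 7.069, and low for Pgk1 at 13.13. Day 0 replicate 3 was high for Ap2b1 at 10.25, and day 0 replicate 4 was low for Aebp1 at 10.5.

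Of the genes named, 28 differed between day 2 and day 1 in limma's fit of all tumours (adjusted p under 0.05). Above day 1 were Net1 (1.73), Dcun1d1 (1.54), Clec5a (1.47), Sp3 (1.23), Has3 (1.13) and Mbnl3 (1.10), on the log2 scale. Among lineage, crest and surface genes, the differences below day 1 were -1.48 for Sox10, -1.09 for Ngfr, -0.69 for Nes, -0.96 for Itga5 and -0.67 for Cd276. Signalling and cell cycle genes below day 1 were Spry1 (-0.71), Map2k2 (-0.84), Pdgfa (-0.75), Pik3r2 (-0.53), Irs2 (-0.71), Cdkn2b (-0.76) and Tgfb2 (-0.94). The remaining differences below day 1 were -0.86 for Pfkl, -0.79 for Fscn1, -0.98 for Col4a2, -1.004 for Hspg2, -1.47 for Ap2b1, -1.30 for Gpx3, -1.23 for Aebp1, -1.19 for Heyl, -1.17 for Lgi4 and -0.73 for Aoah. In the fit that held the spike-in set constant limma called 0 genes between day 2 and day 1, with 334 at an unadjusted p under 0.05.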

How the results depend on the processing

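No paired analysis was possible because the labels number no replicates and the numbers used here come from accession order. Day 2 against day 0 had 2161 called genes, 4456 called probe sets when every probe set was tested, and 79 called genes with spike-in set as a block. With 1 tumour left out the count ran from 1178 to 2080. Day 2 against day 1 had 1068 called genes, 2731 called probe sets and 0 called genes with the block, and 538 to 1542 with 1 tumour left out. Testing every probe set counts some genes several times. For the block and the left-out tumours the cause was not tested. Day 2 against day 3 had 0 called genes in every alternative run, left-out fits included. With the block 10 named calls against day 0 changed sign: Sox10 to 0.12, Map2k2 to 0.10, Hk1 to 0.020, Fscn1 to 0.34, Prkg2 to 0.19, Zeb2 to -0.21, Asprv1 to -1.22, Stfa2l1 to -0.26, Dcun1d1 to -1.32 and Has3 to -0.062. Sp3, not called against day 0, went to -1.36 in that fit (adjusted p = 0.0428). Of 162 named calls 17 were called in the same direction with the block, 121 in a fit of the 2 groups alone, and 126 to 151 with 1 tumour left out. Under the other alternatives 146 to 162 kept their call. Array number and dim probe sets limit what could be detected.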
